A study of Mus musculus with 16 samples.

Results

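The livers described here came from male C57BL6/J mice that were 6 weeks old at the start and were fed a high-fat diet (HFD, 60% of its energy from fat) for 12 weeks, and the comparison was between mice given a small interfering RNA (siRNA) against *Fgfr4* and mice given saline. Bulk RNA sequencing of total liver RNA gave 8 libraries for it, 4 labelled HFD and 4 labelled HFD/FGFR4 KD (knockdown, KD), out of 16 in the series. The other 8 came from chow-fed mice, 4 with the same siRNA and 4 with saline, and they entered the estimate of the spread and stood beside the HFD values as a reference level. The siRNA carried GalNAc, a sugar ligand taken up by the asialoglycoprotein receptor of hepatocytes, and was injected subcutaneously at 3 mg/kg every 2 weeks. The control was saline and not a control siRNA, so an effect of the loss of *Fgfr4* and an effect of siRNA injection cannot be told apart. Mice were housed 4 per cage. Which mice shared a cage, the hour of liver collection and the fed state are not given in the sources used here.

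FGFR4 is the main fibroblast growth factor receptor of the hepatocyte. With its co-receptor β-klotho it binds FGF15, a hormone that the ileum releases when bile acids return to it, and the receptor's signal lowers *Cyp7a1*, the rate-limiting enzyme of the classic pathway of bile acid synthesis. Bile acids are made from cholesterol, so the axis also bears on how much cholesterol the liver synthesises, takes up and exports. The study asked what hepatic FGFR4 does in diet-induced steatosis, the storage of triglyceride in hepatocyte lipid droplets, and the values here describe what moved across all expressed genes when the receptor was lowered in that setting.

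The libraries held 4575975 to 5976449 estimated counts in the HFD group and 3445949 to 5598175 in the KD group. Hepatocyte marker genes summed to 58210 to 70710 CPM (counts relative to the TMM-scaled library total) in the HFD group and 59690 to 76980 CPM in the KD group, and skeletal muscle and pancreatic acinar markers summed to less than 1 CPM in each library. The libraries of a group were not alike. On the first principal component, which held 46.1% of the variance of the 500 most variable genes, HFD 1 and HFD 3 scored 25.7 and 30.4 while HFD 2 and HFD 4 scored 5.97 and 9.64. KD 1 scored -6.33, apart from KD 2, KD 3 and KD 4 at 16.7, 19.6 and 20.6 and inside the -23.2 to -4.84 of the chow libraries. KD 1 also had the highest share of counts on *Gm42418*, a transcript that overlaps ribosomal RNA sequence, at 22.3% against 13.7 to 16.2% in the other KD libraries. Results are therefore given with KD 1 and, where its absence moved them, without it. No pair of libraries within a group was close enough to be the same library. In its expression heatmaps the study describes a column as a mouse, with n = 4, so p-values measure the spread between these mice.

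**Figure D1:**
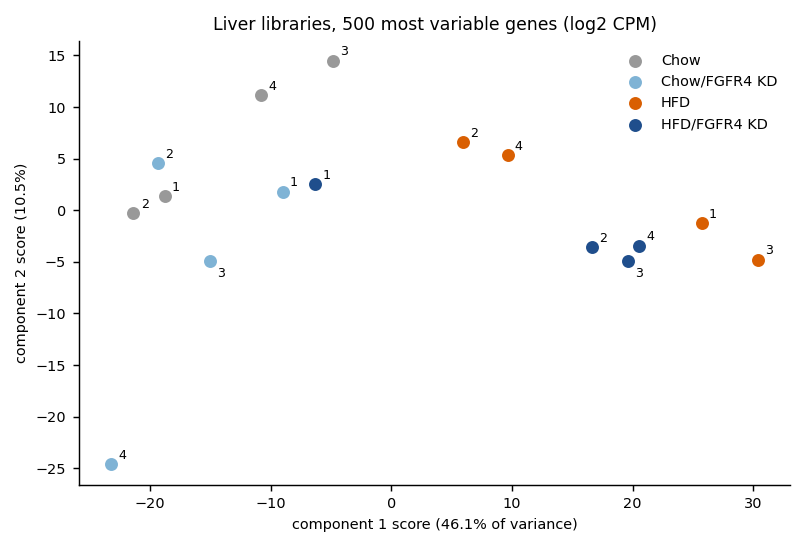
Scores of the 16 libraries on the first and second principal components of log2 CPM, coloured by group, with each axis giving its share of the variance. KD 1, at -6.33 on the first component, lay among the chow libraries, whereas the other KD libraries lay between 16.7 and 20.6.

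The target of the siRNA was lower in each of the 4 KD libraries than in any HFD library. *Fgfr4* (ENSMUSG00000005320, chr13:55152640-55168759 on GRCm38) had 30.1, 28.6, 21.8 and 22.4 CPM in the HFD libraries and 2.82, 2.43, 5.31 and 4.404 CPM in the KD libraries. The groups did not overlap, and the mean went from 25.7 ± 4.25 to 3.74 ± 1.35 CPM (SD, n = 4), a log2 change of -2.78 ± 0.27 (SE; tested by limma-voom with Benjamini-Hochberg adjustment, adjusted p = 9.06e-05). On chow the same siRNA gave a log2 change of -2.62 ± 0.26. The other receptors and the co-receptor did not pass the test, with log2 changes of 0.31 for *Fgfr1*, 0.42 for *Fgfr2*, -0.18 for *Fgfr3*, -0.35 for *Fgfrl1* and 0.08 for *Klb*. Of 13 tested genes that are induced by or feed back on the ERK pathway downstream of such receptors, 1 was called, beside 3.14% of all genes tested: *Spred1*, which encodes an inhibitor of RAS signalling, fell by 0.71 on the log2 scale (adjusted p = 0.196, 2 of 8 fits, highest 0.434). In the list 3 genes had an unadjusted p under 0.05, DESeq2 called 3, and the count was 0 without KD 1 (0 to 2 over the 8 fits). The feedback inhibitors *Spry4* and *Spred2* had log2 changes of -0.76 and -0.57 (limma-voom adjusted p = 0.303 for each) and *Etv5*, a transcription factor induced by the pathway, -0.85, and the immediate early genes *Fos*, *Egr1* and *Junb* had 0.95, 0.79 and 0.73. None of these 6 passed, and the median of the list was 0.042.

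Over the 11324 genes tested, KD on HFD called 356 genes (p under 0.05 and adjusted p under 0.25, the thresholds of the study), the 3.14% given above. Of these, 170 rose (1.5% of the tested genes) and 186 fell (1.64%), and 345 were protein-coding. Most changes were small: the median log2 change was 0.60 among genes that rose and -0.51 among those that fell, with 38 genes more than 2-fold higher and 28 more than 2-fold lower. A stricter adjusted p under 0.05 left 31 genes (0.274%), 14 higher and 17 lower. The 4 KD libraries lay wholly above or wholly below the 4 HFD libraries in 735 genes (6.49% of those tested), among them 250 of the 356 called genes. Scaling by library totals alone called 114 genes, of which 33.3% were higher against 47.8% with TMM, so the balance of rises and falls depended on the scaling.

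Single libraries carried much of the call list. Leaving out 1 of the 8 libraries at a time gave between 89 genes (without HFD 3) and 605 (without HFD 2), with 169 without HFD 1, 95 without KD 4 and 127 without KD 3. Without KD 1, 138 genes were called, 117 of them among the 356. All 356 kept their sign without KD 1, and the median ratio of the log2 change to that of the full fit was 0.936. The 356 were selected in the full fit, which shares its other libraries with this fit, so kept signs are no independent check. The call held in each of the 8 such fits for 62 genes, 27 higher and 35 lower. In what follows the number of these 8 fits in which a gene stayed called stands beside it, for most genes in parentheses, with the libraries whose absence lost the call where these were at most 2, and with the highest adjusted p over the fits. All adjusted p are from limma-voom with Benjamini-Hochberg adjustment, over the 11324 genes in the full fit and over the genes that passed the filter in each fit without a library (11405 without KD 1). The counts of list members moved likewise, so pathway lists with calls are given with their range over the 8 fits, and each count is to be read against the 3.14% called over all genes tested. Besides *Fgfr4*, *Cyp7a1* and genes of sterol synthesis, the 62 genes were led in size by *Cdh1*, *Igfbp2*, *Dct* and *Slco2a1* and the predicted genes *Gm21897* and *Gm20634* among the rises and by *Raet1e*, *Raet1d*, *Vnn1*, *Postn*, *Tppp*, *Usp18* and *Ndufa5* among the falls.

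**Figure D2:**
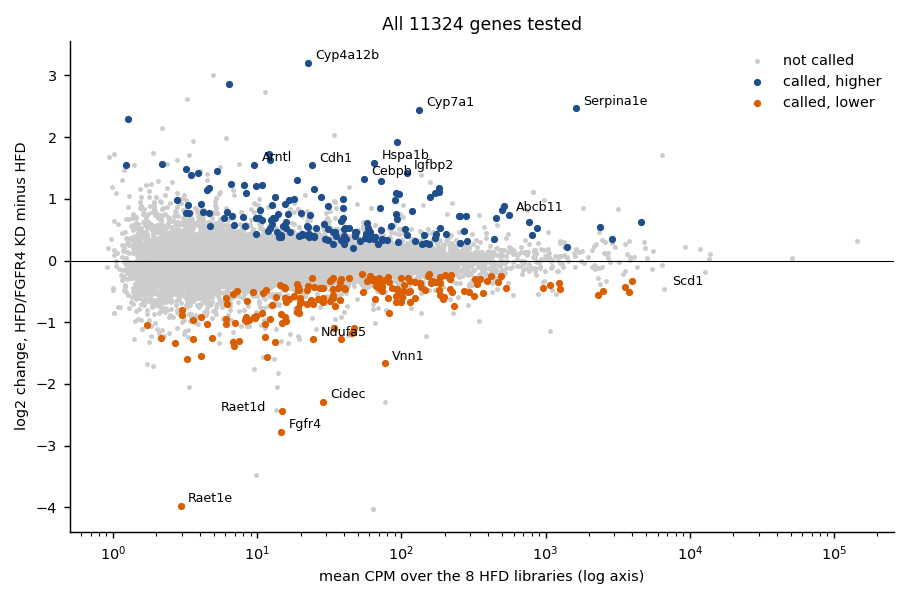
Log2 change with KD on HFD against mean CPM over the 8 HFD libraries (log axis) for the 11324 tested genes, with called genes coloured by direction and some genes described in the text labelled. The median of mean CPM was 34 for the 170 genes that rose and 35.6 for the 186 that fell, above the 14.5 of all genes tested.

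Bile acid synthesis was the arm nearest to the receptor, and in it the first enzyme moved far more than the rest. Of 16 tested genes 3 rose and 1 fell, with a median log2 change of 0.17 beside 0.0035 over all genes tested, and 1 rose and 1 fell without KD 1 (2 to 5 called over the 8 fits). *Cyp7a1* had 34.9, 41.7, 29.9 and 59.2 CPM in the HFD libraries and 207, 183, 172 and 334 CPM in the KD libraries, without overlap. Its log2 change of 2.45 ± 0.33 (adjusted p by limma-voom = 0.00276, 8 of 8 fits, highest 0.0218) was the only one above 1 in the list. *Cyp27a1*, which starts the alternative pathway, rose by 0.32 on the log2 scale, from 252 ± 35.7 to 314 ± 31.3 CPM (adjusted p = 0.211, 3 of 8 fits, highest 0.476). *Akr1d1*, the reductase of the steroid ring, rose by 0.42 (adjusted p = 0.228, 2 of 8 fits, highest 0.503). *Hsd17b4*, a peroxisomal enzyme that shortens the side chain of bile acids and of very long fatty acids, fell by 0.35 (adjusted p = 0.079, 8 of 8 fits, highest 0.206). *Cyp8b1*, which makes the cholic acid branch and is lowered by the same hormone, had a log2 change of 0.07 and *Cyp7b1* one of 0.71, and neither passed. None of 10 regulators around the bile acid receptor FXR was called by limma-voom, edgeR or DESeq2, and none had an unadjusted p under 0.05: *Nr1h4* (FXR) stood at 0.01, *Nr0b2* (SHP) at 0.16 and *Nr5a2* (LRH-1) at 0.02.

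Transporters of bile acids and of sterols were called in both directions, 1 higher and 3 lower of 13 tested (2 to 4 over the 8 fits). Without KD 1 the counts were 1 and 1. *Abcb11*, the bile salt export pump of the canalicular membrane, rose, while *Abcg5* and *Abcg8*, which pair to secrete cholesterol, and *Abcc3*, a basolateral exporter of bile acids and conjugates, fell. *Abcb11* (ENSMUSG00000027048, chr2:69238282-69342616) had 471, 419, 347 and 403 CPM in the HFD libraries and 789.9, 489.8, 901 and 628 CPM in the KD libraries. Each KD library was above each HFD library, with a log2 change of 0.74 ± 0.15 (adjusted p by limma-voom = 0.0453, 8 of 8 fits, highest 0.165). Its mean on chow was 656 ± 73.6 CPM, so the KD mean of 702 ± 181 CPM stood beside the chow level and the HFD mean of 410.1 ± 51.02 CPM below it. *Abcg8* (ENSMUSG00000024254, chr17:84676302-84700333) had 55.8, 74.1, 62.2 and 62.6 CPM in the HFD libraries and 30.6, 24.6, 34.9 and 21.8 CPM in the KD libraries. The KD libraries again did not overlap the HFD libraries, and they lay below the chow mean of 45.2 ± 9.25 CPM, with a log2 change of -1.18 ± 0.24 (adjusted p by limma-voom = 0.0496, 8 of 8 fits, highest 0.158). *Abcg5*, whose annotation overlaps that of *Abcg8*, fell by 0.61 (adjusted p = 0.227, 1 of 8 fits, highest 0.455). Of the 31-base words of the transcripts of *Abcg5* and *Abcg8*, 1.94% and 1.41% occur in other genes, so at most a small part of their counts could rest on shared reads. *Abcc3* fell by 0.73, from 289.6 ± 60.1 to 176 ± 41.3 CPM with KD 1 lowest at 114.2 CPM (adjusted p = 0.211, 2 of 8 fits, highest 0.462). The uptake carrier *Slc10a1* and the phospholipid flippase *Abcb4* had log2 changes of -0.20 and -0.11 and did not pass.

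The promoter of *Abcb11* (250 bases before to 50 after the annotated start, RefSeq on GRCm38.p6, chr2:69342567-69342866, minus strand) is shown because the gene was the transporter that rose and because its window holds a single copy of TAGGTCA, the core element bound by ROR and REV-ERB receptors. The element reads TGACCTA on the printed strand, in capitals, and begins 56 bases before the start. The same letters, searched on both strands, occur in 2.97% of 27025 such windows.
Abcb11: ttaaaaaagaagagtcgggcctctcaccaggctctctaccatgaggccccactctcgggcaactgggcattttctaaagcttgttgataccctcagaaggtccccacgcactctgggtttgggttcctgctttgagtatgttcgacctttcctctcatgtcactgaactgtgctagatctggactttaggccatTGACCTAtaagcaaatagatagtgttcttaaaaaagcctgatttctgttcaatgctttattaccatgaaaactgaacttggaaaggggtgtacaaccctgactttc

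Sterol synthesis genes were higher and are given only in outline. Of 20 enzymes 14 rose, none fell and all 20 had positive log2 changes (median 0.78), and edgeR called 12. The count was 14 without KD 1 (median 0.88) but 7 without KD 3 and 6 without KD 4, the range over the 8 fits being 6 to 14. *Tm7sf2*, a sterol C14 reductase, varied little within groups, with 64.7, 68.5, 70.1 and 71.2 CPM in the HFD libraries and 111, 115, 117 and 119.9 CPM in the KD libraries (adjusted p by limma-voom = 9.06e-05, 8 of 8 fits, highest 0.000947). *Srebf2*, the transcription factor of the pathway, rose by 0.53 (adjusted p = 0.16, lost without KD 3 or KD 4, highest 0.358). On chow the median change of the 20 enzymes was -0.094.

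Genes of the lipid droplet leaned lower with KD, and the called ones include proteins that coat or enlarge droplets in steatotic liver. Of 21 tested genes 4 fell, none rose, and the median log2 change was -0.24. Without KD 1, 2 fell and the median was -0.19 (2 to 6 over the 8 fits). *Plin4* (ENSMUSG00000002831, chr17:56100591-56109803), a perilipin that coats droplets, had 62.5, 49.4, 89.99 and 52.7 CPM in the HFD libraries and 18.6, 38.7, 27.2 and 37.05 CPM in the KD libraries. Its groups did not overlap, and its log2 change was -1.10 ± 0.25 (adjusted p by limma-voom = 0.0807, 8 of 8 fits, highest 0.244). *Cidec*, which fuses small droplets into large ones, had 53.02, 14.2, 85.7 and 34.3 CPM in the HFD libraries and 2.601, 23.02, 7.64 and 8.55 CPM in the KD libraries. HFD 1 and HFD 3 were highest and HFD 2 was below KD 2. The gene fell by 2.29 (adjusted p = 0.185, 3 of 8 fits, highest 0.394). The chow mean of *Cidec* was 4.89 ± 6.25 CPM. *Fitm2*, an endoplasmic reticulum protein needed for droplet formation, fell by 0.62, from 79.1 ± 9.06 to 52.3 ± 10.2 CPM, without overlap (adjusted p = 0.0807, 8 of 8 fits, highest 0.242). *Mgll*, the monoglyceride lipase, fell by 0.59 (adjusted p = 0.174, 3 of 8 fits, highest 0.429). *Plin2*, the main perilipin of hepatocytes, had 643, 427, 674 and 407 CPM in the HFD libraries and 349, 477, 335 and 371 CPM in the KD libraries, and with a log2 change of -0.46 it did not pass (adjusted p by limma-voom = 0.331). The lipases and synthases *Pnpla2*, *Dgat1* and *Dgat2* did not pass either, with log2 changes of -0.24, -0.29 and -0.13.

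*Cidec* is also an adipocyte gene, and the summed adipocyte markers went from 45.8 to 115.6 CPM in the HFD group to 14.2 to 43.4 CPM in the KD group. Of the 7 markers *Lep* was at 0 in each of the 8 libraries, *Adipoq*, *Plin1* and *Retn* did not exceed 3 counts in any, and *Cidec*, *Cfd* and *Fabp4* made up nearly all of the sum. *Cfd* (adipsin) fell by 1.57 on the log2 scale (adjusted p = 0.228, 1 of 8 fits, highest 0.494). *Fabp4* had -0.44 and did not pass. In bulk liver, fewer cells of a type and less RNA per cell cannot be told apart.

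De novo lipogenesis had 1 called gene. Of 15 tested genes 1 rose and none fell (6.67%, beside 3.14% of all genes tested, 0 to 4 over the 8 fits, highest without KD 2), 5 had an unadjusted p under 0.05 and DESeq2 called 2, with a median log2 change of -0.21 that was -0.016 without KD 1. The libraries differed widely within groups: *Scd1*, the stearoyl-CoA desaturase, had 11674, 1734, 13586 and 5259 CPM in the HFD libraries and 1541, 7258, 7661 and 4703 CPM in the KD libraries. HFD 2 and KD 1 were the lowest of their groups, and the log2 change of -0.46 ± 0.63 became 0.05 without KD 1. *Fasn*, fatty acid synthase, had 871, 209, 889 and 298 CPM in the HFD libraries and 217, 551, 648 and 612 CPM in the KD libraries and a log2 change of -0.0037 ± 0.45, whose 95% interval ran from -0.89 to 0.88, so that a change of nearly 2-fold in either direction was not detectable. The single called gene, *Mid1ip1*, an activator of acetyl-CoA carboxylase, rose by 0.53 (adjusted p = 0.19, 3 of 8 fits, highest 0.404). *Me1*, *Pklr* and *Elovl6* had log2 changes of -0.85, -0.72 and -0.68 and did not pass. *Srebf1* and *Mlxipl*, which encode the transcription factors SREBP1 and ChREBP, stood at -0.15 and -0.21.

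Genes of fatty acid oxidation leaned lower in both compartments in which it runs. In mitochondria each of 21 tested genes had a negative log2 change (median -0.22) and 5 fell. The count was 2 without KD 1, with a median of -0.15 and again all 21 negative (2 to 5 over the 8 fits). With KD on chow the median of this list was -0.092. *Hadhb* (ENSMUSG00000059447, chr5:30155248-30184593), the thiolase subunit of the trifunctional protein, had 221, 219, 226 and 210.0 CPM in the HFD libraries and 137, 171, 152 and 139 CPM in the KD libraries. The groups did not overlap, with a log2 change of -0.55 ± 0.093 (adjusted p by limma-voom = 0.018, 8 of 8 fits, highest 0.0788) that was -0.51 (limma-voom adjusted p = 0.0757) without KD 1. Of its 31-base words 23.7% occur in other genes, so a part of its counts may have rested on how shared reads were assigned. *Hadha*, the partner subunit encoded beside it, fell by 0.30 (adjusted p = 0.237, 2 of 8 fits, highest 0.494). *Acad11*, an acyl-CoA dehydrogenase, fell by 0.38 (adjusted p = 0.0577, 8 of 8 fits, highest 0.209). *Eci1*, the isomerase for unsaturated fatty acids, fell by 0.39 (adjusted p = 0.199, 3 of 8 fits, highest 0.429). *Cpt1a*, the carnitine transferase that admits fatty acids to the mitochondrion, had -0.29 and did not pass, nor did *Acadm* and *Acadvl* at -0.17 and -0.16.

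In peroxisomes 5 of 20 tested genes fell and 1 rose, with a median log2 change of -0.25, beside -0.18 with KD on chow. *Pex11a*, a peroxisome division protein, had 116, 91.4, 128 and 112 CPM in the HFD libraries and 63.3, 98.7, 56.8 and 66.3 CPM in the KD libraries, with KD 2 inside the HFD range. It fell by 0.68 (adjusted p = 0.0904, lost without HFD 3 or KD 3, highest 0.268). *Decr2*, the peroxisomal dienoyl-CoA reductase, fell by 0.48 (adjusted p = 0.116, 5 of 8 fits, highest 0.325). *Slc27a2*, an acyl-CoA synthetase for very long chains, fell by 0.44 (adjusted p = 0.19, 2 of 8 fits, highest 0.398). *Hacl1*, which cleaves branched acids, rose by 0.43 (adjusted p = 0.218, 3 of 8 fits, highest 0.494). Without KD 1, 2 of the 20 genes were called, both lower (1 to 7 over the 8 fits, lowest without HFD 3).

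These pathways share the nuclear receptor PPARα, and of 17 genes used as a readout of it 2 fell and none rose (median log2 change -0.38, and -0.27 without KD 1, with 1 to 4 called over the 8 fits and 1 without KD 1). *Vnn1* (ENSMUSG00000037440, chr10:23894688-23905343), a pantetheinase strongly induced by PPARα in liver, had 127, 102, 138 and 91.9 CPM in the HFD libraries and 24.3, 63.1, 31.4 and 33.9 CPM in the KD libraries. The KD mean of 38.2 ± 17.1 CPM was near the chow mean of 36.6 ± 19.2 CPM, with a log2 change of -1.67 ± 0.31 (adjusted p by limma-voom = 0.0428, 8 of 8 fits, highest 0.14). *Fabp1*, the abundant fatty acid binding protein of the hepatocyte, had 2818, 2843, 2856 and 2413 CPM in the HFD libraries and 1684, 2282, 1937 and 1564 CPM in the KD libraries. It fell by 0.56 without overlap (adjusted p = 0.211, 3 of 8 fits, highest 0.45). *Ppara* itself had -0.26, *Cpt1b* -0.97, *Cyp4a14* -0.98, *Cyp4a10* -0.59, *Fgf21* 0.48 and *Pdk4* 0.36, and none of them passed. With KD on chow the median of the 17 genes was -0.19, and *Ppara* had -0.30 and did not pass. Ketone body synthesis had no call in 6 genes by limma-voom or edgeR and 1 by DESeq2, with 2 at an unadjusted p under 0.05 and a median of -0.34.

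The *Fabp1* promoter (RefSeq, GRCm38.p6, chr6:71199629-71199928, plus strand) is shown because it holds a direct repeat of the kind bound by PPARα with its partner RXR. The repeat was searched as a copy of AGGNCA, any 1 base and AGGNCA again, on both strands, and is in capitals in its reverse orientation, beginning 67 bases before the start. It overlaps a TAGGTCA element, and it occurs in 0.451% of the 27025 windows. Among the PPARα genes it was in 1 of 9 windows, that of *Fabp1*. It was in 0 of 19 windows of the mitochondrial and 0 of 15 of the peroxisomal oxidation genes. Of the called genes with a window, 1 of 139 that fell and 1 of 118 that rose held it. A part of PPARα in these values was not tested.
Fabp1: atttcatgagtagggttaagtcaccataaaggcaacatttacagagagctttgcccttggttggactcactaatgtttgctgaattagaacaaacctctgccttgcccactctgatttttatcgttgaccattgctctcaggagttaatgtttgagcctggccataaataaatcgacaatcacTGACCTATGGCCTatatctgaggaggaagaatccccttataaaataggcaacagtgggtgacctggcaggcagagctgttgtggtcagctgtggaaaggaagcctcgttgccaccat

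Of 15 fatty acid uptake and binding genes 2 fell, *Fabp1* and *Slc27a2* given above, and 1 rose (0 to 4 over the 8 fits, with 1 higher and none lower without KD 1). *Cd36*, the fatty acid translocase that rises in steatotic liver, had 224, 118, 225 and 128 CPM in the HFD libraries and 44.2, 107, 131 and 118 CPM in the KD libraries. HFD 1 and HFD 3 stood above the remaining libraries, KD 1 stood below them, and with a log2 change of -0.84 the gene did not pass (adjusted p by limma-voom = 0.494). *Acsl3*, an acyl-CoA synthetase of droplets and endoplasmic reticulum, rose by 1.04, from 19.1 ± 9.62 to 36.7 ± 8.54 CPM (adjusted p = 0.177, 5 of 8 fits, highest 0.383). Among 19 apolipoproteins and lipoprotein factors (median 0.023) 2 rose, against none without KD 1 and 0 to 5 over the 8 fits, and edgeR called 1: *Lcat*, which esterifies plasma cholesterol, by 0.29 (adjusted p = 0.228, 2 of 8 fits, highest 0.494), and *Angptl8*, an inhibitor of lipoprotein lipase, by 0.99 (adjusted p = 0.228, 2 of 8 fits, highest 0.502).

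Beyond lipids, 1 subunit of respiratory complex I stood out. *Ndufa5* (ENSMUSG00000023089, chr6:24518666-24528013), an accessory subunit of the peripheral arm, had 32.4, 35.97, 37.1 and 33.7 CPM in the HFD libraries and 15.6, 13.9, 15.1 and 12.2 CPM in the KD libraries. The fall, to 0.412 times the HFD level (log2 change -1.28 ± 0.13, adjusted p by limma-voom = 9.06e-05), had the same adjusted p as those of *Fgfr4* and *Tm7sf2* (8 of 8 fits, highest 0.000996). On chow *Ndufa5* went from 35.8 ± 2.33 to 24.7 ± 5.07 CPM (log2 change -0.52 ± 0.12). Its limma-voom p on chow was 0.00052 unadjusted and 0.976 adjusted. The difference between the diets of -0.75 did not pass (adjusted p by limma-voom = 0.491). Of the other 42 complex I subunits tested 1 fell, *Ndufa3* by 0.44 (adjusted p = 0.102, lost without HFD 3 or KD 4, highest 0.291). The list's median was -0.078 (1 to 2 called over the 8 fits). Complexes II to V had no call in 45 genes by limma-voom or edgeR and 2 by DESeq2, with 6 at an unadjusted p under 0.05 and a median of -0.062.

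*Cisd1* (ENSMUSG00000037710, chr10:71330480-71344954), which encodes mitoNEET, an iron-sulfur protein of the outer mitochondrial membrane, had 100.1, 106, 108 and 105 CPM in the HFD libraries and 58.7, 53.6, 76.7 and 45.1 CPM in the KD libraries. It was tight among HFD libraries and lower in each KD library (log2 change -0.85 ± 0.14, adjusted p by limma-voom = 0.018, 8 of 8 fits, highest 0.0782), with a change of -0.38 ± 0.15 on chow that did not pass. *Sfxn1*, a serine carrier of the inner membrane, fell by 0.44, from 84.8 ± 3.69 to 62.6 ± 3.43 CPM. At the entry to the citric acid cycle, *Pdha1*, the catalytic subunit of pyruvate dehydrogenase, fell by 0.50 and *Cs*, citrate synthase, by 0.50. The calls of *Sfxn1*, *Pdha1* and *Cs* held in each fit that left out 1 library, with limma-voom adjusted p up to 0.163, 0.239 and 0.178. *Cs* had 128, 113, 131 and 109 CPM in the HFD libraries and 72.8, 86.7, 89.99 and 90.7 CPM in the KD libraries, without overlap. *Dlst* fell by 0.25 (adjusted p = 0.218, 2 of 8 fits, highest 0.492), whereas *Idh3a*, a subunit of isocitrate dehydrogenase, rose by 0.56 (adjusted p = 0.12, lost without KD 1 or KD 4, highest 0.291). In all, 3 of 18 genes of the cycle fell and 1 rose, and without KD 1, 2 fell and none rose (2 to 5 over the 8 fits).

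**Figure D3:**
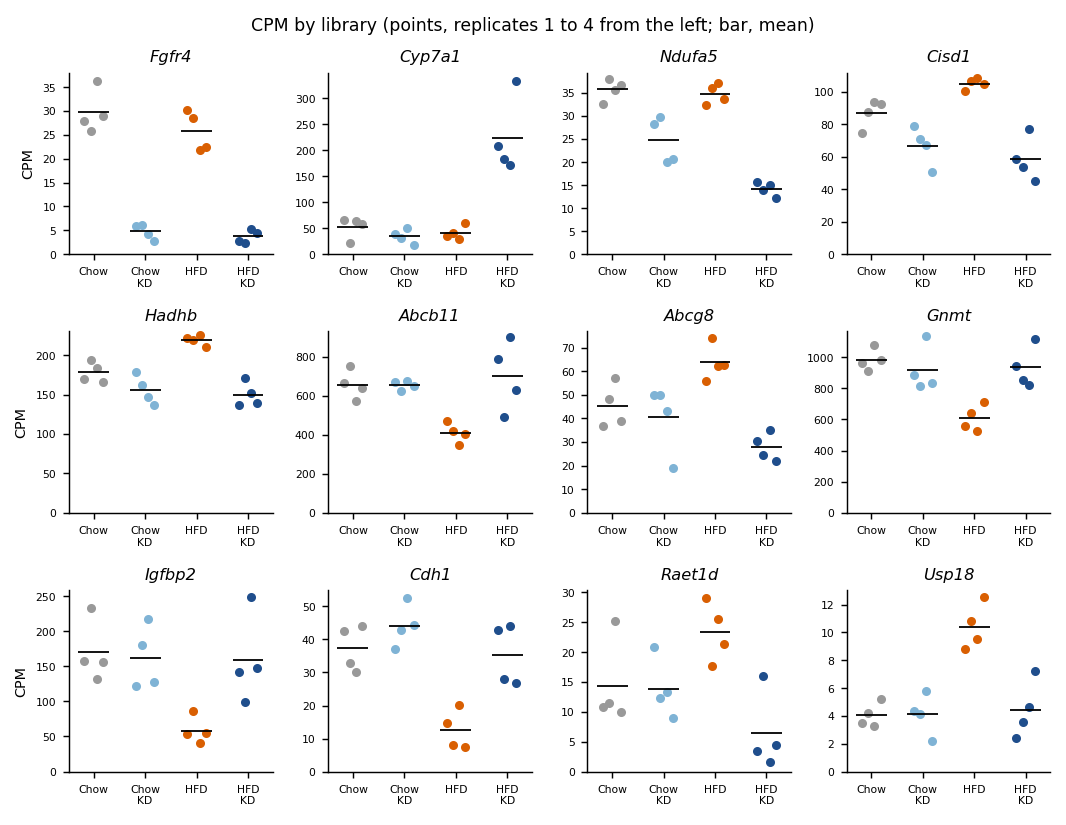
CPM of 12 genes in each library of the 4 groups, with the group mean as a bar and each panel on its own linear axis starting at 0. *Ndufa5* lay between 12.2 and 15.6 CPM in the KD libraries and between 32.4 and 37.1 CPM in the HFD libraries. The 12 genes shown are all among those whose HFD and KD groups did not overlap, 6.49% of the genes tested. The separation of their points follows from this choice of genes.

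Called genes of glycogen metabolism were lower and higher. Of 23 tested genes of glucose and glycogen metabolism 3 fell and 1 rose (median log2 change -0.20). Without KD 1, 2 fell and none rose, with a median of -0.11, and 1 to 8 were called over the 8 fits. *Ugp2* (ENSMUSG00000001891, chr11:21321138-21371201), which makes the UDP-glucose used for glycogen, had 356, 381, 387 and 405 CPM in the HFD libraries and 236, 307, 231 and 257 CPM in the KD libraries. The chow mean was 224 ± 15.7 CPM, so HFD saline livers stood above it and KD livers nearer to it, with a log2 change of -0.58 ± 0.11 (adjusted p by limma-voom = 0.0453, 8 of 8 fits, highest 0.144). *Gys2*, the liver glycogen synthase, had 129, 146, 153 and 173 CPM in the HFD libraries and 91.05, 107, 99.3 and 93.8 CPM in the KD libraries. It fell by 0.61 without overlap (adjusted p = 0.101, lost without HFD 3 or KD 4, highest 0.262). The glycogen-targeting phosphatase subunit *Ppp1r3b*, in contrast, rose by 0.72, from 196 ± 63.7 to 309.9 ± 42.9 CPM (adjusted p = 0.174, 3 of 8 fits, highest 0.404). The gluconeogenic enzymes *Pck1* and *G6pc* had log2 changes of 0.06 and 0.93 and did not pass.

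In the insulin and IGF list 1 of 17 genes rose and 1 fell, and without KD 1, 1 rose (1 to 3 over the 8 fits). *Igfbp2* (ENSMUSG00000039323, chr1:72824503-72852474), a binding protein for insulin-like growth factors that is low in obesity, had 53.3, 85.99, 40.2 and 54.5 CPM in the HFD libraries and 142, 99.4, 248 and 147 CPM in the KD libraries. Each KD library was above each HFD library, the KD mean of 159 ± 63.1 CPM stood beside the chow mean of 169.8 ± 43.9 CPM, and the log2 change was 1.42 ± 0.27 (adjusted p by limma-voom = 0.0453, 8 of 8 fits, highest 0.163) and 1.45 (limma-voom adjusted p = 0.0983) without KD 1. *Igfbp3* fell by 0.95 (adjusted p = 0.228, 2 of 8 fits, highest 0.483). *Igf1* had a log2 change of 0.14 (95% interval -0.15 to 0.43), *Insr* -0.10 and *Irs2* 0.27, and *Irs1*, with 22.2, 16.02, 17.5 and 20.6 CPM in the HFD libraries and 28.8, 20.6, 30.7 and 30.3 CPM in the KD libraries, had 0.53 and did not pass (adjusted p by limma-voom = 0.375).

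*Cdh1* (ENSMUSG00000000303, chr8:106603351-106670246), the gene of E-cadherin, the adhesion protein of epithelial cells and of periportal hepatocytes, was among the clearest rises, with 14.7, 8.17, 20.2 and 7.47 CPM in the HFD libraries and 42.9, 27.9, 44.00 and 26.9 CPM in the KD libraries. Its KD mean of 35.4 ± 9.28 CPM stood beside 37.4 ± 6.93 CPM on chow (log2 change 1.54 ± 0.27, adjusted p by limma-voom = 0.018, 8 of 8 fits, highest 0.0882). Summed cholangiocyte markers, another epithelial source of *Cdh1* in liver, ranged from 14.6 to 93.5 CPM in the HFD group and from 35.8 to 61.5 CPM in the KD group, so they overlapped. None of 16 pericentral genes was called by limma-voom or edgeR, 1 was by DESeq2, and 4 had an unadjusted p under 0.05.

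Genes of the circadian clock were called in both directions. BMAL1 and CLOCK form the activator, which drives *Per*, *Dbp* and the REV-ERB genes, and REV-ERB in turn represses *Arntl* (BMAL1) and *Nfil3*. In the BMAL1 arm 3 of 6 genes rose and none fell (median log2 change 0.79), and in the Per, REV-ERB and PAR-bZIP arm 2 of 11 fell and none rose (median -0.22). Without KD 1 the counts were 1 and 0 and the medians 0.66 and -0.071, and over the 8 fits the counts ranged from 0 to 3 and from 0 to 4. In the second arm 3 of 11 log2 changes were positive, 5 without KD 1. *Arntl* (ENSMUSG00000055116, chr7:113207465-113314126) had 9.08, 5.39, 4.45 and 1.41 CPM in the HFD libraries and 17.1, 9.07, 12.6 and 17.1 CPM in the KD libraries. KD 2 lay just under HFD 1 and the remaining KD libraries lay above the HFD group, with a log2 change of 1.55 ± 0.38 (adjusted p by limma-voom = 0.102, lost without HFD 3 or KD 4, highest 0.268). *Nfil3*, a repressor of the D-box, had 22.5, 18.3, 12.7 and 8.08 CPM in the HFD libraries and 47.5, 25.01, 35.4 and 27.5 CPM in the KD libraries. It rose by 1.16 (adjusted p = 0.186, 3 of 8 fits, highest 0.429). *Clock* rose by 0.53 (adjusted p = 0.177, 3 of 8 fits, highest 0.435). *Per2*, a repressor of the activator, had 17.4, 26.6, 25.3 and 31.5 CPM in the HFD libraries and 16.3, 16.6, 12.3 and 9.59 CPM in the KD libraries, without overlap. It fell by 0.85 (adjusted p = 0.177, 3 of 8 fits, highest 0.395). *Dbp* had 21.2, 36.9, 51.97 and 77.9 CPM in the HFD libraries and 13.7, 34.5, 16.4 and 19.2 CPM in the KD libraries. It fell by 1.09 with a wide spread in the HFD group (adjusted p = 0.249, 3 of 8 fits, highest 0.492). *Nr1d1* and *Nr1d2*, which encode REV-ERBα and REV-ERBβ, had log2 changes of 0.19 and -0.16, *Per1* 0.27 and *Bhlhe40* 0.25, and none passed. The chow means were 20.2 ± 5.95 CPM for *Arntl*, 55.5 ± 6.705 for *Nfil3*, 9.87 ± 3.69 for *Per2* and 3.18 ± 3.55 for *Dbp*, so the KD mean lay between the HFD and the chow mean in each of these 4 genes. Clock transcripts change over the day, the hour of collection is not given for any library, and its part in these values was not tested.

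The promoters of *Arntl* (chr7:113207261-113207560, plus strand) and *Nfil3* (chr13:52980990-52981289, minus strand; both RefSeq, GRCm38.p6) are shown because they are the called genes of this arm whose windows hold TAGGTCA, in capitals, on the printed strand in *Arntl*, beginning at base 31 after the start, and in reverse in *Nfil3*, beginning 12 bases before it. Windows were found for 5 of the 6 genes of the arm, and 2 of the 5 held the element, beside the 2.97% of all windows given above.
Arntl: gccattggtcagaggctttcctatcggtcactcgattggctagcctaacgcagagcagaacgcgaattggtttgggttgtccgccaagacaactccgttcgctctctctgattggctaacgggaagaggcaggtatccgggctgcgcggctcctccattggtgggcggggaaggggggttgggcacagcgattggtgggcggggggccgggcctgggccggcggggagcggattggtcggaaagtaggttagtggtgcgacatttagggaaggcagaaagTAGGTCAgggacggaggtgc
Nfil3: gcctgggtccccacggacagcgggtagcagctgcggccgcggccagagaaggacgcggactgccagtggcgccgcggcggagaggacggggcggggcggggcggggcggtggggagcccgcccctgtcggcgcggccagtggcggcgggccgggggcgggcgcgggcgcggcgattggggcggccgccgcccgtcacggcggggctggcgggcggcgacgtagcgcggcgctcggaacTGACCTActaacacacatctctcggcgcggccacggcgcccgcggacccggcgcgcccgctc

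Male-biased liver genes were uneven between libraries. Of 17 tested genes 3 rose and none fell, with a median log2 change of 0.33. Without KD 1, 2 rose and the median was 0.044 (0 to 4 over the 8 fits, lowest without HFD 3). *Serpina1e*, a male-biased antitrypsin gene of the mouse, had 105, 949, 145 and 933 CPM in the HFD libraries and 6788, 1835, 636 and 1606 CPM in the KD libraries. KD 1 was far above the remaining KD libraries and near the chow mean of 9274 ± 2066 CPM, and HFD 1 and HFD 3 were far below HFD 2 and HFD 4. Its log2 change was 2.47 ± 0.68 (adjusted p = 0.171, 4 of 8 fits, highest 0.429). *Cyp4a12b*, a male-specific fatty acid and arachidonic acid hydroxylase, had 0.443, 15.3, 1.87 and 18.1 CPM in the HFD libraries and 66.8, 25.6, 25.8 and 25.6 CPM in the KD libraries. The groups did not overlap, and the change of 3.20 ± 0.72 (adjusted p by limma-voom = 0.0807) was 2.86 (limma-voom adjusted p = 0.139) without KD 1 (lost without HFD 3, highest 0.268). *Elovl3*, a fatty acid elongase that is both male-biased and clock-driven, rose by 1.11, from 117 ± 48.8 to 250.1 ± 93.1 CPM beside 772 ± 87.5 CPM on chow (adjusted p = 0.0936, lost without HFD 3, highest 0.277). *Serpina1e* and *Cyp4a12b* share 54.2% and 62.9% of their 31-base words with other genes, so their counts may have rested on how shared reads were divided. None of 9 genes of the growth hormone axis or of 16 major urinary protein genes was called by limma-voom, edgeR or DESeq2, and none had an unadjusted p under 0.05.

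Drug-metabolising enzymes were called in both directions. Of 25 cytochromes P450 of families 1 to 3 and their receptors 2 rose: *Cyp2c29*, with 349, 426, 245 and 367 CPM in the HFD libraries and 499, 446, 608 and 656 CPM in the KD libraries, rose by 0.68 (adjusted p = 0.102, 5 of 8 fits, highest 0.321), and *Cyp2c54*, 42.3% of whose words are shared with other genes, rose by 1.93 (adjusted p = 0.177, 3 of 8 fits, highest 0.445). In this list 9 genes had an unadjusted p under 0.05 and DESeq2 called 5 and edgeR 1. The count was 3 without KD 1, 7 without HFD 2 and 0 without HFD 3, KD 3 or KD 4. *Cyp3a11* and *Cyp1a2* had log2 changes of 0.97 and 0.75 and did not pass. Of 35 conjugating enzymes 2 fell, *Ugt2b35* by 0.47 (adjusted p = 0.123, 4 of 8 fits, highest 0.339), and *Ugt1a6a* by 0.36 (adjusted p = 0.131, 4 of 8 fits, highest 0.345). Among 13 carboxylesterases *Ces1f* fell by 0.49 (adjusted p = 0.0904, 8 of 8 fits, highest 0.246), and *Ces2a* rose by 0.56 (adjusted p = 0.177, 3 of 8 fits, highest 0.434). Of 16 NRF2 targets and metallothioneins *Nqo1*, a quinone reductase, fell by 1.02 (adjusted p = 0.237, 1 of 8 fits, highest 0.494). The calls were 8% of the cytochrome list, 5.71% of the conjugating enzymes, 15.4% of the carboxylesterases and 6.25% of the NRF2 list, beside 3.14% of all genes tested. Over the 8 fits they ranged from 0 to 6, 1 to 2 and 0 to 2 in the last 3 lists, with 1, 1 and 0 without KD 1.

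**Figure D4:**
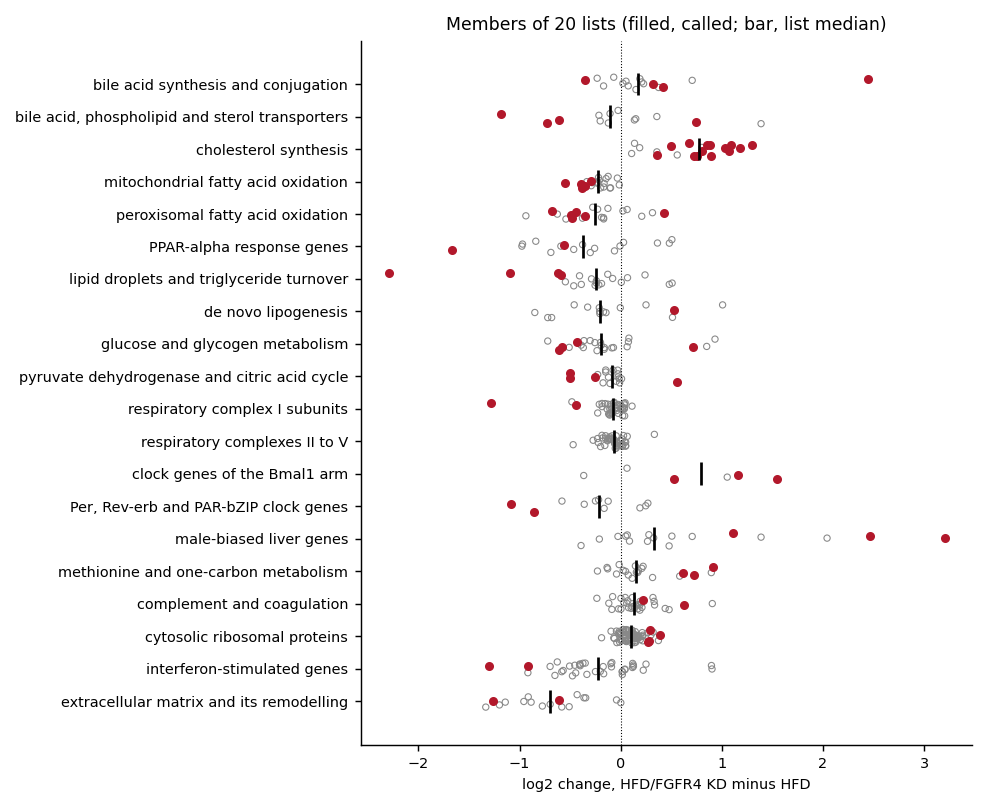
Log2 change with KD on HFD of each tested member of 20 gene lists, with filled points for called genes, open points for the rest and a bar at each list's median. The 20 sterol synthesis genes all lay above 0 and the 21 mitochondrial fatty acid oxidation genes all lay below it, with medians of 0.78 and -0.22.

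Methyl-group and amino acid metabolism rose at single enzymes. Of 21 genes of methionine and one-carbon metabolism 3 rose and none fell (median log2 change 0.16), and 2 rose without KD 1 (1 to 4 over the 8 fits). *Gnmt* (ENSMUSG00000002769, chr17:46725664-46729168), which uses S-adenosylmethionine to methylate glycine and sets the liver's methyl supply, had 557, 643, 524 and 711 CPM in the HFD libraries and 945, 854, 822 and 1116 CPM in the KD libraries. The groups did not overlap and the KD mean of 934 ± 132 CPM stood beside the chow mean of 983 ± 69.8 CPM (log2 change 0.62 ± 0.12, adjusted p by limma-voom = 0.0486, 8 of 8 fits, highest 0.166). *Cth*, which makes cysteine from cystathionine, rose by 0.72 (adjusted p = 0.177, 2 of 8 fits, highest 0.439). *Ass1* of the urea cycle rose by 0.54 as the single call among 23 genes of the urea cycle and amino acid breakdown, with none called without KD 1 and 0 to 5 over the 8 fits (adjusted p = 0.218, 2 of 8 fits, highest 0.492). *Kyat1*, a transaminase of kynurenine and glutamine, rose by 0.46 and *Paox*, the polyamine oxidase, by 0.64, both without overlap and both called in each fit that left out 1 library (limma-voom adjusted p up to 0.179 and 0.165).

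Ligands of the natural killer receptor NKG2D were among the largest falls. *Raet1e* (chr10:22158569-22374139) had 7.01, 2.62, 8.35 and 3.68 CPM in the HFD libraries and 0.688, 1.19, 0 and 0 CPM in the KD libraries, with 3, 5, 0 and 0 estimated counts in the KD libraries, and its fitted log2 change of -3.98 ± 0.68 (adjusted p by limma-voom = 0.018, 8 of 8 fits, highest 0.136) at such counts depends on the fit and is no bound. *Raet1d* (chr10:22360552-22374139) had 29.02, 17.7, 25.5 and 21.4 CPM in the HFD libraries and 3.43, 16.1, 1.66 and 4.404 CPM in the KD libraries. It fell by 2.44, with KD 2 close to the lowest HFD library and the remaining KD libraries at 4.40 CPM or less (adjusted p = 0.0453, 8 of 8 fits, highest 0.185). The annotations of these genes overlap, and 55.5% and 67.1% of their words occur in other genes, so they are not 2 separate observations. On chow the changes were -0.34 ± 0.47 and 0.01 ± 0.40.

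Interferon-stimulated genes held 1 of the stricter calls. Of 38 tested genes 2 fell and none rose (5.26%, beside 3.14% of all genes tested, 1 to 3 over the 8 fits, 1 without KD 1), 13 had positive log2 changes, beside 50.65% of all genes tested, and the median was -0.23 (-0.26 without KD 1). *Usp18* (ENSMUSG00000030107, chr6:121245906-121270917), the protease that removes ISG15 and dampens interferon receptor signalling, had 8.79, 10.8, 9.505 and 12.5 CPM in the HFD libraries and 2.38, 3.54, 4.65 and 7.25 CPM in the KD libraries. The chow mean was 4.03 ± 0.879 CPM, the log2 change -1.30 ± 0.26 (adjusted p by limma-voom = 0.0453, 8 of 8 fits, highest 0.136). *Cmpk2*, a mitochondrial nucleotide kinase, fell by 0.91 (adjusted p = 0.214, 1 of 8 fits, highest 0.467). *Ifit1*, *Isg15* and *Irf7* had log2 changes of -0.41, -0.45 and -0.44 and did not pass. Summed macrophage markers ranged from 224 to 356 CPM in the HFD group and from 205 to 319 CPM in the KD group. None of the 14 tested macrophage markers was called by limma-voom, edgeR or DESeq2 and 1 had an unadjusted p under 0.05, and among 5 MHC class II genes none was called by any of these or had an unadjusted p under 0.05.

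Extracellular matrix genes leaned lower in KD libraries with a wide spread. Of 17 tested genes 2 fell, 16 had negative log2 changes and the median was -0.70, the lowest of the 47 pathway lists. Without KD 1 the median was -0.51 and none was called, and over the 8 fits 0 to 9 were (9 without HFD 2). The fibrillar collagens *Col1a1*, *Col1a2* and *Col3a1* had log2 changes of -1.33, -1.20 and -0.91 and did not pass. *Loxl2*, a collagen crosslinker, had 8.71, 5.198, 9.48 and 3.72 CPM in the HFD libraries and 1.58, 4.83, 3.22 and 1.86 CPM in the KD libraries. It fell by 1.26 (adjusted p = 0.203, 3 of 8 fits, highest 0.439). *Col4a1*, a basement membrane collagen, fell by 0.61 (adjusted p = 0.228, 2 of 8 fits, highest 0.495). *Postn* (periostin), outside the list and chosen after its values were seen, went from a mean of 9.7 to 3.9 CPM (log2 change -1.32 ± 0.27, adjusted p by limma-voom = 0.0496), and its call held in each fit that left out 1 library. Summed stellate cell markers ranged from 77.5 to 99.2 CPM in the HFD group and from 64.4 to 99.6 CPM in the KD group, with none of 7 called by limma-voom, edgeR or DESeq2 or at an unadjusted p under 0.05. Endothelial markers summed to 143 to 161 CPM and 115 to 151 CPM, with 8 of 8 log2 changes negative and 1 at an unadjusted p under 0.05. The part of these cells in the matrix values was not tested.

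Lysosomal genes were mixed, with 2 falls and 1 rise in 16, the same counts without KD 1 and 1 to 4 calls over the 8 fits. *Ctsz* (ENSMUSG00000016256, chr2:174427493-174439039), a lysosomal carboxypeptidase, had 118, 113, 139 and 117 CPM in the HFD libraries and 73.1, 83.9, 89.3 and 76.2 CPM in the KD libraries, without overlap. Its log2 change was -0.59 ± 0.10 (adjusted p by limma-voom = 0.018, 8 of 8 fits, highest 0.0806). *Ctsl*, another cathepsin, rose by 0.35 (adjusted p = 0.0807, lost without KD 4, highest 0.26), while *Lamp1* fell by 0.25 (adjusted p = 0.19, 3 of 8 fits, highest 0.429). *Atg12*, a ubiquitin-like protein of autophagosome formation, had 29.1, 27.1, 28.98 and 24.03 CPM in the HFD libraries and 16.7, 17.9, 18.6 and 13.5 CPM in the KD libraries, and *Ppp2r1b*, a scaffold subunit of protein phosphatase 2A, had 25.4, 22.9, 25.3 and 23.02 CPM in the HFD libraries and 12.8, 13.3, 12.9 and 15.3 CPM in the KD libraries. Neither overlapped: *Atg12* fell by 0.70 and *Ppp2r1b* by 0.84 (adjusted p by limma-voom = 0.018 and 0.00995), and both were called in each fit that left out 1 library. *Morf4l1*, a chromatin reader, fell by 0.57 and *Tppp*, a tubulin-binding protein, by 1.32, and both calls likewise held. The ubiquitin ligases *Siah2* and *Rnf149* rose by 0.66 and 0.37, and *Fam25c* rose by 0.999 from 12.1 ± 2.62 to 24.1 ± 4.54 CPM, each called in all 8 such fits.

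Secreted proteins of the hepatocyte were called in both directions. Of 33 complement and coagulation genes 28 had positive log2 changes, beside 50.65% of all genes tested, and 2 rose (median 0.14, 0 to 6 over the 8 fits), and edgeR called 0 and DESeq2 3, with 6 at an unadjusted p under 0.05, and without KD 1, 23 were positive and none was called. *C3*, the central complement protein, had 3627, 3462, 3211 and 4070 CPM in the HFD libraries and 5915, 4170, 6441 and 5831 CPM in the KD libraries. It rose by 0.62 without overlap (adjusted p = 0.211, 3 of 8 fits, highest 0.452). *Serpinc1*, antithrombin, rose by 0.22 (adjusted p = 0.203, 2 of 8 fits, highest 0.445). Of 18 hepatokines *Enho* (adropin) rose by 1.45 from 3.05 ± 1.82 to 7.41 ± 1.43 CPM (adjusted p = 0.228, 2 of 8 fits, highest 0.492), *Angptl8* rose as given above, and *Selenop*, the selenium carrier, fell by 0.34 (adjusted p = 0.19, 2 of 8 fits, highest 0.444). None of the 18 was called without KD 1, and 0 to 6 were over the 8 fits. Among hepatocyte markers *Ttr*, transthyretin, fell by 0.51 (adjusted p = 0.079, 8 of 8 fits, highest 0.23), and *Serpina1a* rose by 0.35 (adjusted p = 0.234, 2 of 8 fits, highest 0.51); both were chosen after their values were seen. The 22 acute-phase genes had no call and none at an unadjusted p under 0.05 by limma-voom, and none by edgeR or DESeq2, with a median of 0.21.

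Protein-making and folding genes shifted by small amounts, mostly upward. Of 77 cytosolic ribosomal protein genes 65 had positive log2 changes and 4 rose (median 0.10), beside 50.65% positive over all genes tested, and without KD 1 the number of positive changes was 52. Without KD 1 none was called (0 to 4 over the 8 fits). With library totals only, the median of the ribosomal list was 0.025 and that of all genes tested -0.079. *Rpl12*, the largest of the 4 rises, had 17.3, 16.4, 16.2 and 17.6 CPM in the HFD libraries and 21.96, 21.6, 19.7 and 26.4 CPM in the KD libraries. It rose by 0.39 (adjusted p = 0.174, 4 of 8 fits, highest 0.402), and 19.8% of its words occur in other genes. The 25 genes of the unfolded protein response had no call by limma-voom, edgeR or DESeq2 and none at an unadjusted p under 0.05, although 21 were positive (median 0.21), a median that was 0.074 without KD 1. Of 12 cytosolic heat shock genes, of which none was called without KD 1 and 0 to 1 over the 8 fits, *Hspa1b* rose by 1.58, with 26.04, 63.4, 22.3 and 19.4 CPM in the HFD libraries and 134, 46.3, 147 and 62.3 CPM in the KD libraries (adjusted p = 0.21, 2 of 8 fits, highest 0.446). Counts of several genes named above may have rested in part on reads shared with other genes, though reads were not examined. The share of words found in other genes was 68.1% for *Hspa1b*, 65.2% for *Serpina1a*, 53.0% for *Ugt1a6a* and 46.4% for *Loxl2*. It was 43.1% for *Ass1*, 35.6% for *Serpinc1*, 33.5% for *Hacl1* and 33.1% for *Paox*. *Cebpb*, a transcription factor of the acute and metabolic response that was chosen after its values were seen, had 25.6, 36.6, 30.8 and 32.9 CPM in the HFD libraries and 84.1, 79.01, 62.9 and 89.6 CPM in the KD libraries. It rose by 1.32 without overlap (adjusted p = 0.16, 4 of 8 fits, highest 0.335).

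Of the 47 pathway lists 12 had no call. They held 184 tested genes, of which edgeR called 0 and DESeq2 called 5, and 14 had an unadjusted p under 0.05 in limma-voom. Beyond those described they were iron handling (15 tested, 2 at an unadjusted p under 0.05, 1 called by DESeq2, with the hepcidin gene *Hamp* at -2.29), the cell cycle (12 tested) and female-biased genes (3 tested), and neither of the last 2 had a gene at an unadjusted p under 0.05 or called by edgeR or DESeq2.

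**Figure D5:**
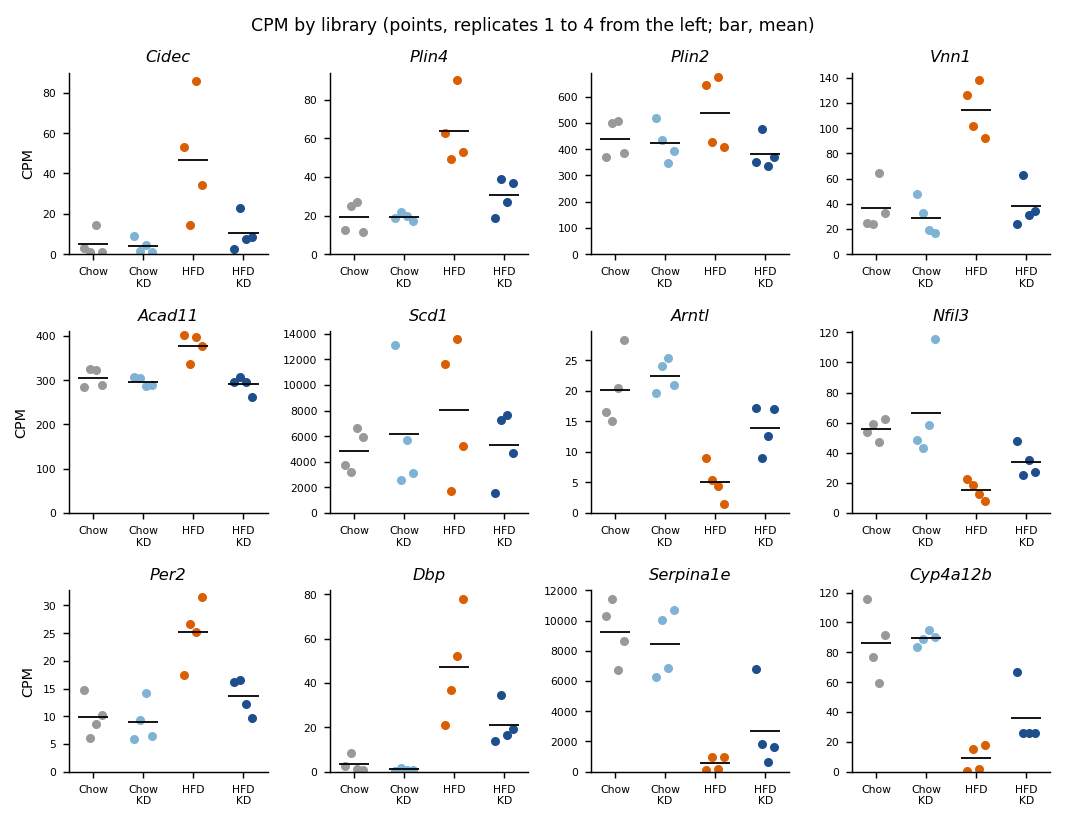
CPM of 12 genes of lipid storage, fatty acid oxidation, the clock and male-biased expression in each library of the 4 groups, with the group mean as a bar and each panel on its own linear axis starting at 0. HFD 1 and HFD 3 were above HFD 2 and HFD 4 for *Cidec* and *Scd1* and below them for *Serpina1e* and *Cyp4a12b*, where KD 1 was the highest KD library.

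The chow libraries showed which of these changes were measured without the diet. Of the 356 called genes 212 (59.6%) had the same sign on chow, beside 52.5% of all genes tested, and 24 (6.74%) had an unadjusted p under 0.05 on chow, beside 4.58% of all genes tested. Of these 24 genes, 21 changed in the same direction on both diets. Among them the log2 changes on chow were 0.98 for *Cebpb*, -0.37 for *Fitm2*, -0.25 for *Cs* and -0.20 for *Hadhb*. The difference between the KD effects on HFD and on chow was tested for each gene, and 4 genes were called (0.0353%), each with a larger change on HFD: *Cyp7a1* by 3.01, *Gm21897*, a predicted gene, by 2.42, *Idi1* by 1.33 and *Tm7sf2* by 0.91 on the log2 scale. DESeq2 called 62 genes for this difference. For *Vnn1*, *Abcb11*, *Igfbp2*, *Cdh1* and *Arntl* the differences were -1.38, 0.74, 1.503, 1.31 and 1.37, and none passed in limma-voom (adjusted p between 0.491 and 0.617). These genes were therefore called on HFD without being shown to respond differently from chow. Chow means stand beside some named genes only, and how many called genes had KD means near the chow mean was not counted. Mean CPM on chow, on HFD and with KD on HFD were 1032, 347 and 553 for *Cyp2c29* and 357, 68.6 and 99.8 for *Ces2a*. They were 179, 219 and 150 for *Hadhb* and 87.0, 105 and 58.5 for *Cisd1*, with KD means below the chow means.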

How the data were processed

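Liver RNA of 16 male mice, 4 per group by the labels, was sequenced as bulk libraries. Per the labels, libraries were made with the KAPA mRNA HyperPrep Kit, whereas the methods of the study name HTG EdgeSeq, and which applies was not settled here. The deposited values are estimated counts per Ensembl gene, which the authors made from reads with fastp and kallisto and summed to genes with tximport, on GRCm38 per the submitters' processing notes. Tool versions and the annotation release are not given in the sources used here. Estimated counts need not be whole, and they were used as deposited. Reads shared by near-identical genes are divided by a model, so for named genes the share of 31-base words also found in transcripts of other genes was computed from the reference transcripts.

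The main test followed the methods of the study: genes under 1 CPM in more than 4 of the 16 libraries were dropped, libraries were scaled by TMM, and limma-voom (limma 3.58.1, edgeR 4.0.16, R 4.3.3) fitted the 4 group means over the 16 libraries, with Benjamini-Hochberg adjustment over the 11324 genes left. A gene was called at p under 0.05 and adjusted p under 0.25. CPM were computed here from the deposited counts with TMM scaling. Total counts were 3445949 to 5976449 per library, so 1 CPM was about 3 to 6 counts, and precision for genes of a few CPM was limited by counting. A chi-square comparison over genes whose count exceeded 20 throughout gave at least 7.59 per degree of freedom for each same-group pair, so none agreed within sampling noise. Alternatives were the edgeR quasi-likelihood test and DESeq2 (1.42.0) on rounded counts, other filters and scalings, library weights, the 8 HFD libraries alone, a replicate block and leaving out each library. The script was tested on simulated counts with known changes.

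Named genes were the target and its known readouts, a fixed set of pathway genes given whether or not they changed, the 15 rising and 15 falling called genes with the smallest p among those whose groups do not overlap (without predicted genes, pseudogenes and genes under 1 CPM in both groups), and up to 4 called members of each of 47 gene lists in each direction. The members, lists and genes were chosen with earlier results of these data known. Gene coordinates and names come from GENCODE annotation of GRCm38 with a table of gene names, which together gave a symbol for 98.5% of the 52143 identifiers, and promoter windows from RefSeq on GRCm38.p6. The siRNA sequence was not used here. Some members of the lists are counted with them and are not reported here by name.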

Additional observations from a re-analysis of the deposited data

Results flagged for a closer look

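In groups of 4 libraries, a value was marked where its gap to the nearest of the others divided by the group's range passed Dixon's critical value. Of 232 groups tested 10 were marked, and chance marks about 5 in 100. In the HFD group these were *Adgre1*, a macrophage gene, at 11.12 CPM in HFD 2 against 5.25 to 6.05 CPM in the others, *Hspa1b* at 63.4 CPM in HFD 2 against 19.4 to 26.04 CPM, *Fabp1* at 2413 CPM in HFD 4 against 2818 to 2856 CPM, *Rpl3* at 122 CPM in HFD 4 against 136 to 138 CPM, and *Ugt2b35* at 126.7 CPM in HFD 1 against 100 to 104 CPM. In the KD group they were *Abcc3* at 114.2 CPM in KD 1 against 190 to 201 CPM, *Cyp4a12b* at 66.8 CPM in KD 1 against 25.6 to 25.8 CPM, *Enho* at 9.54 CPM in KD 1 against 6.48 to 6.995 CPM, *Ass1* at 1869 CPM in KD 2 against 3126 to 3225 CPM, and the score on the first principal component, -6.33 in KD 1 against 16.7 to 20.6.

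The KD effect differed between the diets by the limma-voom test of the difference in 4 genes, given as the log2 change on HFD minus that on chow: *Cyp7a1* by 3.01 ± 0.49 (SE, adjusted p = 0.0764), *Gm21897* by 2.42 ± 0.42 (adjusted p = 0.0894), *Idi1* by 1.33 ± 0.24 (adjusted p = 0.139) and *Tm7sf2* by 0.91 ± 0.11 (adjusted p = 0.00254). Their log2 changes on chow were -0.56, -0.94, -0.15 and -0.16.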

How the results depend on the processing

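The HFD comparison called 356 genes. The count was 228 with the edgeR quasi-likelihood test (225 shared), 222 in the 8 HFD libraries alone (173 shared), 114 with library totals only, 776 with library quality weights (355 shared), 31 at an adjusted p under 0.05, and 89 (without HFD 3) to 605 (without HFD 2) when a library was left out, and other settings gave 259 to 389. With library totals only, 38 genes rose and 76 fell, with the median of all genes at -0.08. The difference between diets called 4 genes, against 62 with DESeq2, 7 with no filter, 7 with quality weights, 2 with the replicate block, 0 by limma-voom with library totals only (761 at an unadjusted p under 0.05), 4 with edgeR, 1 at an adjusted p under 0.05, and 1 (without HFD 1) to 27 (without KD 2) when a library was left out. Genes whose HFD and KD groups did not overlap numbered 735, and 580 with library totals only (133 higher and 447 lower), and 992 to 1353 when a library was left out. Smaller groups separate more readily by chance, so the counts with a library left out cannot be set against the 735.

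Fits with the replicate number as a block are given only here, because no sign was seen that the numbers pair the samples. Same-numbered HFD and KD libraries correlated at -0.291, -0.141, 0.239 and -0.0986 in their deviations from the group means. HFD 2 with KD 1 gave 0.406 and HFD 3 with KD 1 gave -0.425. With so few libraries this check cannot exclude a cage or batch shared by number. With the replicate block 259 genes were called on HFD, 239 of them among the 356.

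Among the named genes, the sign of the log2 change on HFD turned in 9, none of them called. With library totals only, *Klb* was at -0.0033, *Nr1h4* at -0.0685 and *Pck1* at -0.0109. With no filter *Nr1h4* was at -0.0066. With quality weights *Adgre1* at 0.0424. *Fasn* was at 0.00019 with upper quartile scaling, 0.0012 in the 8 HFD libraries alone and 0.0189 with the replicate block. With a library left out the log2 change ranged from -0.0011 to 0.16 for *Klb*, -0.0656 to 0.29 for *Cyp8b1*, -0.0592 to 0.0815 for *Nr1h4*, -0.178 to 0.38 for *Nr0b2*, -0.32 to 0.0363 for *Srebf1*, -0.39 to 0.37 for *Fasn*, -1.07 to 0.0535 for *Scd1*, -0.0532 to 0.17 for *Pck1* and -0.30 to 0.0990 for *Adgre1*. Over the named genes, a left-out library took away the call in 287 cases, gave one in 4 and left direction and call as they were in 606, and another setting did so in 157, 2 and 969. The cause was not tested.

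With 4 libraries per group and 3445949 to 5976449 counts each, changes in genes of a few CPM were measured with wide errors. KD 1 stood apart from the other KD libraries, the KD mice had saline controls and no control siRNA, and cage and hour of collection are not given in the sources used here, and their part in the results was not tested.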
